A study of Mus musculus with 2 samples.

Results

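The nuclear genes of the mitochondrial respiratory chain and ATP synthase were described by the CTCF binding around their transcription start sites (TSSs) in newborn mouse intestine. They were chosen by name: protein-coding genes on chromosomes 1 to 19 of the mm10 build, in GENCODE annotation M21, with a symbol that begins with Nduf, Uqcr, Sdh or Atp5, or with Cox and a number 4 to 8. The rule found 94 genes, held in 95 annotation records because Atp5o has a pair of them, among 20780 protein-coding genes on those chromosomes. They comprise 36 genes named as complex I subunits, 8 complex I assembly factors (Ndufaf genes), 8 genes of complex II with its Sdhaf assembly factors, 8 of complex III, 17 of complex IV and 17 of ATP synthase. Groups follow the symbols, so Ndufa4, now known as a complex IV protein, stands with complex I.

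The material was intestine of B6NCrl mice taken on day 0 after birth, immunoprecipitated with an antibody against CTCF, in 2 biological replicates of 1 group. No genotype change, treatment or other tissue was compared. Each replicate was made from ground intestines of several dissections put together, and sex was not recorded, so a peak cannot be placed in the epithelium, muscle, nerves or blood vessels of the organ. Peak lists were used for each replicate, for both together and for a pair of sets filtered by reproducibility between replicates (IDR); the larger of these, the optimal list, held 73465 peaks and is used throughout unless stated.

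The respiratory chain passes electrons through complexes I to IV of the inner mitochondrial membrane and pumps protons, whose return through ATP synthase drives ATP formation. The mitochondrial genome encodes a few of the subunits, and all of the genes described here lie in the nucleus. Their promoters are known for binding sites of NRF1, of the ETS factor GABP and of YY1. CTCF binds an oriented DNA motif through its zinc fingers, stops cohesin-driven loop extrusion and also occupies many promoters.

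The sequences that follow are the best CTCF matrix sites at the strongest promoter peaks of 7 genes, shown because these peaks rank among the top 10% of the optimal list and lie next to a TSS. Each is 19 bases long and is read 5′ to 3′ on the strand of the site. Capitals mark the 12-base core.
Ndufb10 (complex I), chr17:24724494-24724512, minus strand: ggaCCACAAGGGGGTgctc
Ndufb7 (complex I), chr8:83566661-83566679, plus strand: acaCCGCCAGGGGGTgtca
Ndufa6 (complex I), chr15:82354427-82354445, plus strand: gaaCCACCAGGAGGCgcag
Ndufc1 (complex I), chr3:51409029-51409047, minus strand: ctgCTGCCAGGGGGCgctg
Ndufaf4 (complex I assembly), chr4:24898024-24898042, plus strand: cggCCACCAGGGGGCgacg
Uqcrc1 (complex III), chr9:108936613-108936631, plus strand: tgcCCAACAGGGGGCgact
Atp5k (ATP synthase), chr5:108434461-108434479, minus strand: cagTCGCTAGGGGGCagcg
The 12 letters of the core differ between all 7. All lie in the mm10 build.

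A different core, CCAGAAGAGGGC, recurred near the chain genes, and 4 examples are shown because they share these 12 letters while their peaks differ widely in strength.
Ndufa3, chr7:3617038-3617056, plus strand: acaCCAGAAGAGGGCgtca
Cox6b1, chr7:30624077-30624095, plus strand: gcaCCAGAAGAGGGCgtca
Atp5l, chr9:44921749-44921767, minus strand: acaCCAGAAGAGGGCatca
Sdhb, chr4:140964773-140964791, plus strand: agtCCAGAAGAGGGCgcag

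Whole promoters of 3 genes are given because the data bear on them: a strong CTCF peak lies in the promoters of Ndufaf4 and Uqcrc1, and none lies within 10 kb of Ndufs6, while all 3 carry an NRF1 word. They are RefSeq sequences of the GRCm38.p6 assembly (the mm10 build), from 250 bases before the gene's RefSeq start to 50 after it, on the gene's strand. For Uqcrc1 and Ndufs6 that start differs from the main GENCODE start used below. Positions in these windows therefore do not match the distances given below exactly. Capitals mark, on either strand, the words GCGCANGCGC (NRF1), CCGGAAG (ETS and GABP), AANATGGCG (YY1) and CCANNAGNNGGC (CTCF core).
Ndufaf4, chr4:24897833-24898132, plus strand: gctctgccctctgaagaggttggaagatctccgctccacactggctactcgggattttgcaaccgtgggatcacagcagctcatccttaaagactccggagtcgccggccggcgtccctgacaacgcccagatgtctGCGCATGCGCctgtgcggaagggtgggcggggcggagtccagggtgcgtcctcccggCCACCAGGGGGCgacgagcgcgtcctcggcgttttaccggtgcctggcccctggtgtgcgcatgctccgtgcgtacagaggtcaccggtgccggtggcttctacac
Uqcrc1, chr9:108936398-108936697, plus strand: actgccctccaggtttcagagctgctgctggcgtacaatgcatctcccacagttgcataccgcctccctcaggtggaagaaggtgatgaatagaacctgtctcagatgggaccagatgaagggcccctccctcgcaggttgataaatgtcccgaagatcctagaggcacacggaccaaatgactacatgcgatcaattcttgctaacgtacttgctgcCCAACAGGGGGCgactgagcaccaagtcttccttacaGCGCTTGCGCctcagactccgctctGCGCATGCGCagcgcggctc
Ndufs6, chr13:73328433-73328732, minus strand: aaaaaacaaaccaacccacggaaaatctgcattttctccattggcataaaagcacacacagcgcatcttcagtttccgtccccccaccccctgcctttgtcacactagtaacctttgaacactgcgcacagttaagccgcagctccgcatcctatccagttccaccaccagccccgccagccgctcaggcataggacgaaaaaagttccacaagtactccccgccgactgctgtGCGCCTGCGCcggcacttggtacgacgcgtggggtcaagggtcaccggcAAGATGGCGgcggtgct
In the Ndufaf4 promoter the NRF1 word spans positions 138 to 147 and the CTCF core positions 195 to 206, and the peak summit falls at position 209. In the Uqcrc1 promoter the summit is at position 206, the CTCF core spans positions 219 to 230, and NRF1 words follow at positions 256 to 265 and 281 to 290. In the Ndufs6 promoter the NRF1 word lies at positions 235 to 244 and the YY1 word at positions 284 to 292. A word is a match of letters and not a measured site of the factor it is named after.

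Most chain genes had CTCF close by. A summit lay within 10 kb of a TSS in 84 of the 94 genes, 89.4% with a Wilson 95% interval of 81.5 to 94.1%, against 15454 of all 20780 protein-coding genes (74.4%). Within 1 kb a summit was present for 59 chain genes, 62.8% with an interval of 52.7 to 71.9%, against 9711 of all genes (46.7%). Without olfactory and vomeronasal receptor genes, which lie in large clusters, the shares over the 19325 genes left were 79.2% and 50.2%. The intervals cover the counting of genes only, and members of 1 complex or genes that lie side by side are not independent. Promoter peaks and promoter summits below are those within 1 kb of any annotated TSS. For some genes that start is not the main TSS, the one used by the most protein-coding transcripts. Distances below are from the nearest start, which is not the main TSS at Ndufv1, Ndufaf2, Cox7a2 and Atp5j, for example. Other genes of this kind are not all pointed out.

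All 17 ATP synthase genes and all 8 complex III genes had a summit within 10 kb. Within 1 kb the counts were 14 of 17 for ATP synthase and 7 of 8 for complex III. Complex I had summits within 10 kb for 31 of its 36 genes and within 1 kb for 21. For complex IV the counts were 15 and 9 of 17 genes, for complex II 7 and 4 of 8, and for the complex I assembly factors 6 and 4 of 8. The intervals of all 6 groups overlap one another within each window, as the plot of shares by complex shows.

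**Figure D1:**
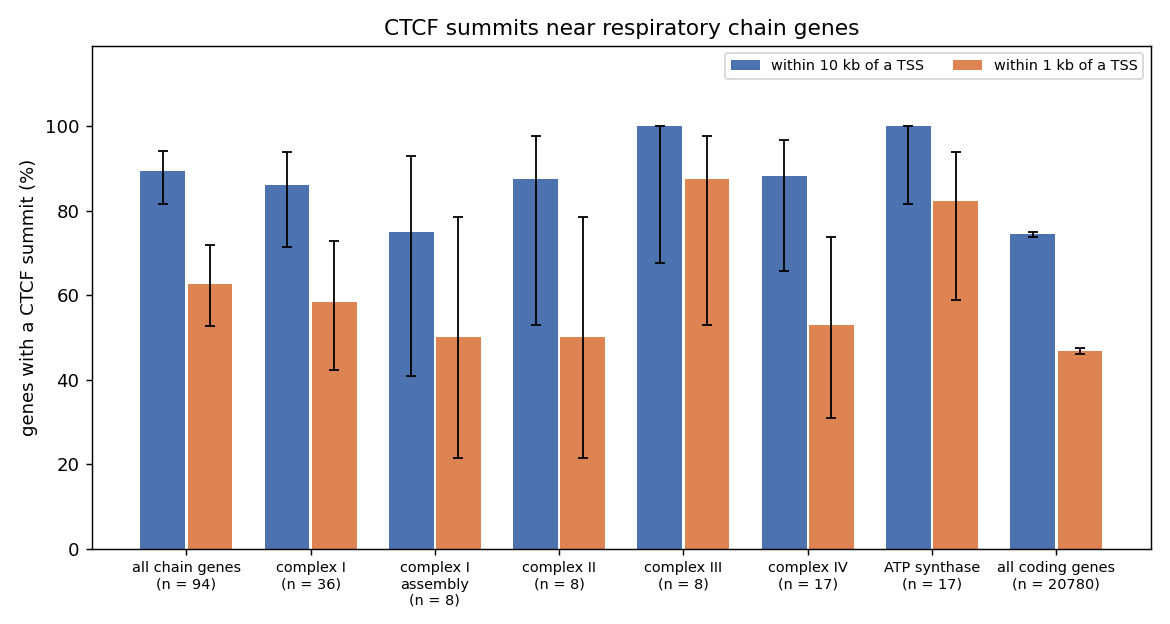
Share of genes with a CTCF summit within 10 kb (blue) and 1 kb (orange) of any TSS, for all 94 chain genes, each complex and all protein-coding genes, with Wilson 95% intervals. Complex III and ATP synthase reach 100% within 10 kb; the interval of all chain genes (81.5 to 94.1%) lies above the 74.4% of all coding genes.

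The chain genes are shorter than the average gene and have slightly more annotated starts. Their median length was 7.78 kb against 17.6 kb over all genes, the median number of distinct TSSs 4 against 3, and the median number of coding genes within 50 kb 4 against 3. A gene with more starts covers more sequence in these windows, and with 1 TSS per gene the shares were 54.3% of chain genes and 38.4% of all genes within 1 kb. The part of length and neighbours in the shares was not tested.

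Chain genes averaged 2.62 summits within 10 kb and all genes 2.21. No summit was within 10 kb of more than 1 chain gene, so the 246 summits belong each to a single one of them. Atp5d, the delta subunit of the ATP synthase head's central stalk, and Atp5o, the subunit that joins head and peripheral stalk, had the most, with 7 each. The Atp5d summits reached 425 in signal at 3264 bases downstream of a TSS, and the promoter peak 91 bases downstream had 318. Those of Atp5o reached 506 at 4848 bases upstream, while its only promoter peak, 581 bases upstream, had 26.3. Signal here is the value that the deposited lists give for a peak's enrichment. Its scale was not stated, and over the optimal list it had a median of 76.0 and a maximum of 756.

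Summits gathered at the starts themselves. The nearest summit was within 50 bases of a TSS for 19 chain genes (20.2%, against 12.5% of all genes) and at 51 to 200 bases for another 19 (20.2% against 16.4%). For 36 of the 59 genes bound within 1 kb (61.0%, against 57.4% of all bound genes) the nearest summit was upstream. The plot of summit positions shows this gathering and also strong peaks scattered out to the edge of the window.

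**Figure D2:**
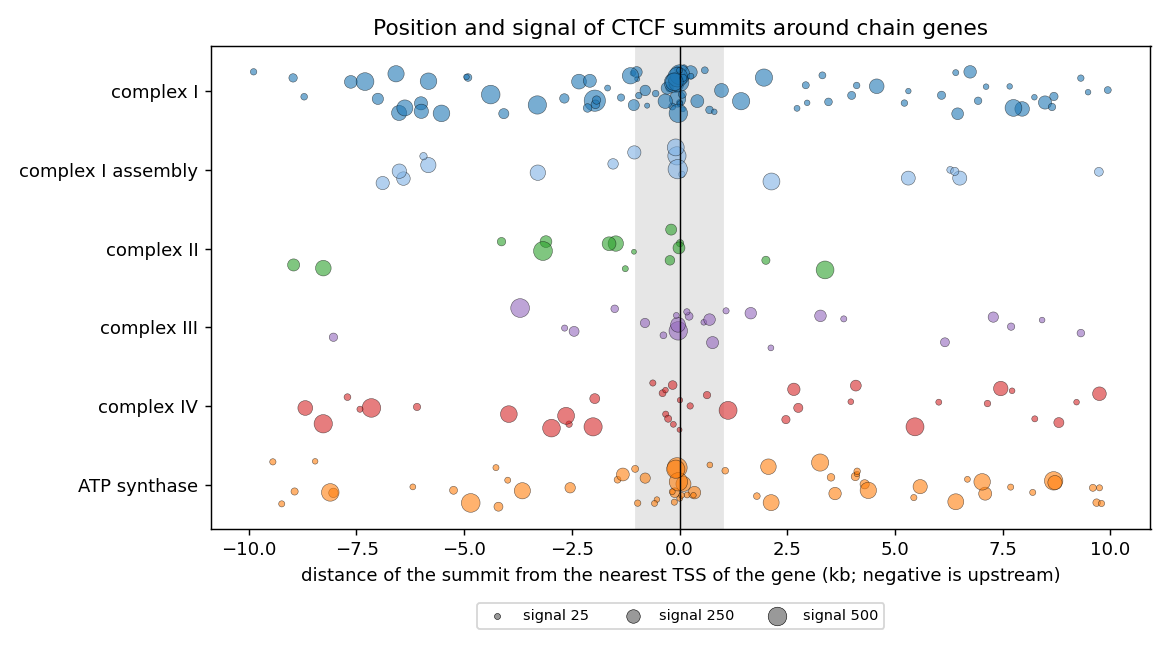
Each circle is a CTCF summit within 10 kb of a chain gene, at its distance from the nearest TSS (kb, negative upstream), in rows by complex with vertical scatter for visibility only; area grows with peak signal and grey marks 1 kb on either side. Large circles stand at the TSS in complex I, its assembly factors, complex III and ATP synthase, and the complex IV circles inside the grey band are small.

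The strongest promoter peak of a chain gene lay most often outside the gene body, though locations were not counted over all bound genes. Of the 59 strongest summits within 1 kb, 32 lay outside the gene, 12 in an intron, 10 in a 5′ untranslated region, 4 in a coding exon and 1 in a noncoding exon. At Atp5g2, for example, the intron belongs to a transcript with a start farther upstream than the bound one. In 8 genes (13.6%, against 8.03% of all bound genes) the summit lay closer to the TSS of another coding gene, as for Ndufa11, whose summit is nearer to Vmac, and Sdhd, whose summit is nearer to Timm8b.

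Promoter peaks of chain genes were close to those of other genes in median strength. The median of the strongest signal within 1 kb was 88.1 for the 59 bound chain genes and 89.2 for all 9711 bound genes. A peak above the optimal list's median was present at 30 chain genes, which is 50.8% of those bound, against 54.5% of all bound genes; over all genes tested, bound or not, it was 31.9% against 25.5%. At the upper end, 14 of the 59 genes (23.7%) had a promoter peak among the top 10% of the list, against 13.6% of all bound genes. The summits of these 14 lay a median of 44.5 bases from the TSS, and those of the 1317 such genes overall a median of 161 bases.

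Complex I held the strongest of these peaks. Ndufb10, an accessory subunit of the membrane arm, had a signal of 596 with its summit 16 bases upstream of a TSS; its signal was 302 in replicate 1 and 298 in replicate 2. Ndufb7, a membrane-arm subunit on the intermembrane-space side, had 580.2 at 6 bases downstream, and 289 and 293 in replicates 1 and 2. Ndufa6, an accessory subunit of the LYR family, had 578 at 123 bases upstream, and 282 and 298 in the replicates.
These 3 peaks ranked between 172 and 438 of 300000 in replicate 1 and between 306 and 361 in replicate 2, so both replicates placed them near the top. Ndufc1, a small membrane-arm subunit, came next with 568 at 43 bases upstream. Ndufv1, the core subunit that binds NADH and FMN, had 446 at 121 bases upstream.
Further core subunits had weaker promoter peaks or none. Ndufs7 had 25.7 at 1 base from a start that is not its main TSS. Ndufs8 had 48.2, and Ndufs1 and Ndufs3 had no summit within 1 kb. Ndufv2 had 289 at 331 bases upstream. Among the 21 bound complex I genes 12 were above the median signal, and their range ran between 11.0 at Ndufa11 and 596 at Ndufb10.

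Among the 8 assembly factors of complex I, 3 had strong promoter peaks, 1 had a weak one and 4 had none. Ndufaf4 had 542 at 42 bases upstream, with 278 in replicate 1 and 265 in replicate 2. Ndufaf3, which acts with Ndufaf4 early in assembly, had 479.7, with 246 and 233 in the replicates. The Ndufaf3 summit lay 60 bases upstream of a start that is not its main TSS, and downstream of the main TSS. Ndufaf6 had 408 at 88 bases upstream, with 195 and 216 in the replicates. The remaining bound member, Ndufaf2, had only 33.5 at 53 bases downstream, and Ndufaf1, Ndufaf5, Ndufaf7 and Ndufaf8 had no summit within 1 kb. Ndufaf8 nevertheless had a peak of 409 at 2134 bases downstream. The smaller IDR list, called conservative, did hold a summit within 1 kb of an Ndufaf8 TSS.

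Complex II is succinate dehydrogenase, the enzyme shared with the citric acid cycle. Its strongest promoter peak was at Sdhaf2, the factor needed for attaching FAD to the catalytic subunit. The signal was 189.7, with 100.1 and 91.5 in replicates 1 and 2. The summit lay 13 bases upstream of a start that is not the gene's main TSS. Sdhaf3 had 157 at 194 bases upstream, with 86.6 and 74.4 in the replicates. Sdhd, a membrane anchor, had 113 at 223 bases upstream, with 56.1 and 58.6.
Both replicates gave the same order for these 3. The catalytic subunit Sdha had 51.8 at 12 bases downstream, and Sdhb and Sdhc had no summit within 1 kb. Sdhb had the group's strongest peaks farther away, 518 at 3170 bases upstream and 458 at 3379 bases downstream.

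In complex III, the cytochrome bc1 complex, the core proteins led. Uqcrc1 had 492 at 30 bases upstream, with 241 in replicate 1 and 257 in replicate 2. Uqcrc2 had 307 at 35 bases upstream, with 157 and 153 in the replicates. Uqcr11 had 195 at 767 bases downstream, with 103 and 91.5. The Rieske iron-sulfur protein Uqcrfs1 had only 32.1 within 1 kb and a peak of 508 at 3701 bases upstream. Uqcr10 was the complex III gene without a promoter summit.

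Complex IV, cytochrome c oxidase, had promoter peaks of low signal. The highest was 88.1 at Cox6a1, 160 bases upstream, with 45.0 in replicate 1 and 43.8 in replicate 2. Cox6c followed with 53.4 at 638 bases downstream of a start inside the gene that is not its main TSS. There replicate 1 gave only 16.6 and replicate 2 gave 35.0. Cox7a2l, known for its part in supercomplexes, had 47.8 at 264 bases upstream, with 17.4 and 32.4.
Only 1 of the 9 bound genes was above the optimal list's median, and their median was 30.1, against 229 for complex I and 74.3 for ATP synthase. Over the wider window these 9 genes had a median strongest signal of 53.4, between 29.5 and 468, and 4 of them were above the optimal list's median. Cox4i1, for example, had 468 at 5467 bases downstream, and Cox6a1 had 466 at 1127 bases downstream, just past 1 kb. Over all 15 complex IV genes with a summit within 10 kb the median of the strongest was 306, and over the 31 such complex I genes it was 301. Cox5b, which had no promoter summit, had 503 at 7154 bases upstream. The contrast between complexes was noticed in these values and was not tested.

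ATP synthase promoters fell into a strong and a weak set. Atp5g2, one of 3 genes for the membrane ring's c subunit, had 585 at 55 bases upstream, with 304 in replicate 1 and 287 in replicate 2. Atp5k, the e subunit found at the dimer interface, had 491 at 25 bases upstream, with 235 and 256. Atp5mpl, a small membrane subunit, had 483 at 87 bases upstream, with 242 and 241.
These 3 and Atp5d, Atp5b, Atp5f1 and Atp5c1 made the 7 genes above the median signal. Atp5b, the catalytic beta subunit, had 213 in an intron, 346 bases downstream of a start inside the gene that is not its main TSS. The other 7 bound genes lay between 17.9 at Atp5j2 and 33.4 at Atp5l. Atp5a1, the alpha subunit, and Atp5h and Atp5g3 had no promoter summit in the optimal list. The conservative list held one within 1 kb of Atp5g3.

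**Figure D3:**
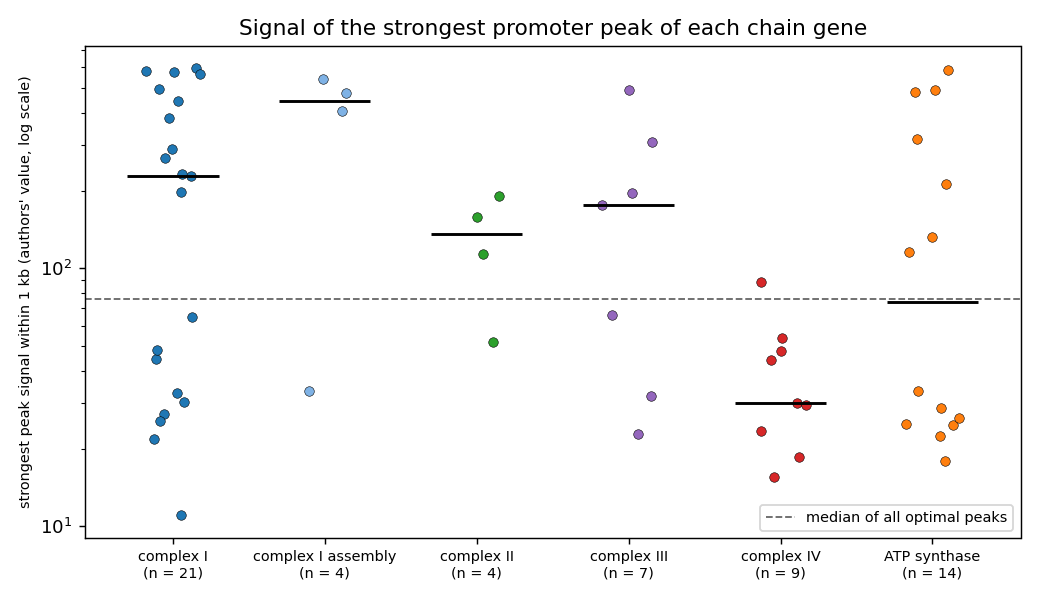
Signal of the strongest peak within 1 kb of a TSS (log scale, the authors' value) for each of the 59 bound chain genes by complex; black bars are medians and the dashed line is the median of the optimal list, 76.0. Complex IV points stay at or below 88.1, and complex I and ATP synthase split into points above 100 and points below the dashed line.

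Nearest summits within 50 bases of a start were not always strong. Besides genes given above, they occurred at Ndufab1, the mitochondrial acyl carrier protein, with 381 at 46 bases upstream, and at Ndufa7, with 27.2 at 45 bases upstream. That Ndufa7 start is inside the gene and is not its main TSS. Ndufa4 had 31.3 at 2 bases downstream, and Ndufb5 had 21.8 at 9 bases downstream. Cox7a2 had 15.6 at 11 bases downstream. Cox5a had a summit on a TSS itself with a signal of 8.57, one of the weakest in the list, and a second of 23.4 at 143 bases upstream. The nearest summit of Atp5d, at 4 bases, had 22.4. Signals of summits this close to a start thus ran between 8.57 at Cox5a and 596 at Ndufb10.

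Atp5j, coupling factor 6 of ATP synthase, shares its promoter peak with a regulator of the chain. Its summit, 49 bases downstream of a TSS with a signal of 22.4, is also the summit 330 bases downstream of a TSS of Gabpa, the DNA-binding subunit of GABP, since the 5′ ends of both genes overlap on opposite strands. The replicates were uneven here, with 6.44 and rank 100620 in replicate 1 and 15.7 and rank 59577 in replicate 2.

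Chain genes often have a neighbour on the opposite strand that starts close upstream. Such a head-to-head coding partner within 1 kb was found for 29 of the 94 genes (30.9%), against 1999 of all 20780 (9.62%). Complex II, complex III and the assembly factors each had 4 of 8, complex I 12 of 36, ATP synthase 4 of 17 and complex IV 1 of 17. The partners include Mrpl36, a mitochondrial ribosomal protein gene, 51 bases from Ndufs6, and Timm8b, a mitochondrial import gene, 98 bases from Sdhd. A summit within 1 kb was present at 18 of the 29 (62.1%), against 65.6% of all genes with such a partner. Of the 65 chain genes with no partner 41 had one (63.1%), against 44.7% of all such genes. The median of the strongest promoter signal was 48.2 for the 18 and 195 for the 41, where over all genes with and without a partner it was 70.5 and 93.4.

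Base composition was described in the 300-base window at the main TSS of each gene. Summits were still counted within 1 kb of any TSS, which can lie away from that window, as at Atp5b, Ndufa7, Cox6c and Cox6b1. A window was called CpG-rich where G and C made up more than 50% of bases and CpG dinucleotides were more than 0.6 of the number expected from base composition. The window was CpG-rich for 62 of the 94 chain genes (66.0%), against 44.5% of all genes. Among CpG-rich windows 42 of 62 chain genes had a summit within 1 kb (67.7%), close to the 67.1% of all genes of that kind. Among the others 17 of 32 had one (53.1%), against 30.4% of all such genes. Within the CpG-rich class the share of chain genes thus lay at the background share. The small second class rests on 32 genes.

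**Figure D4:**
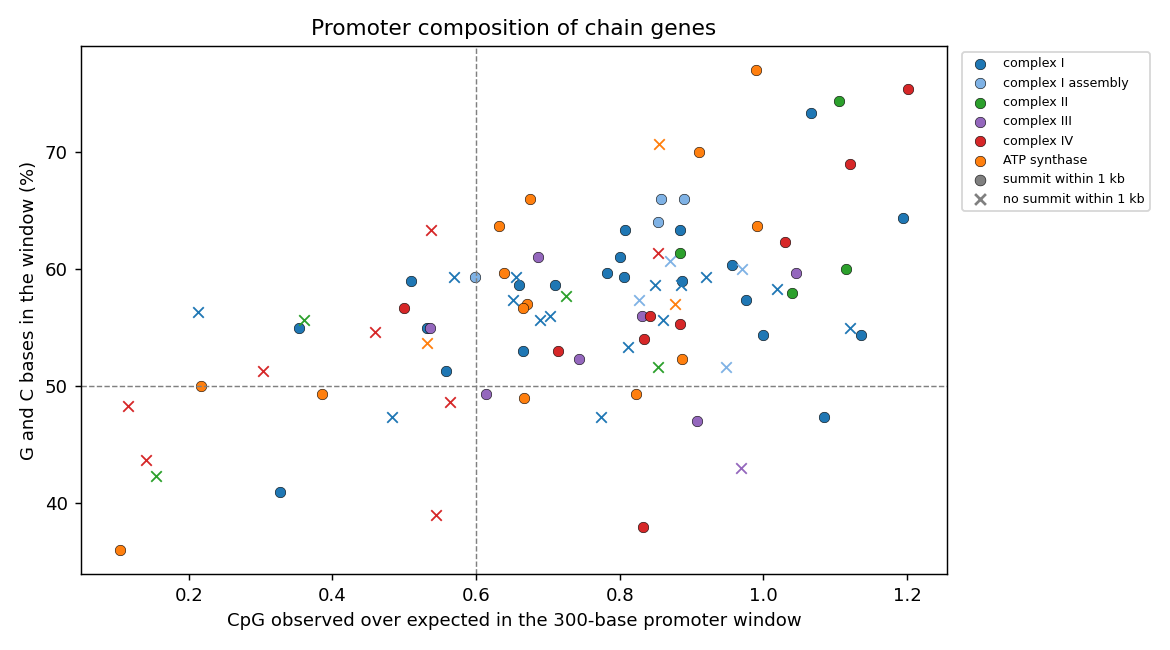
CpG observed over expected (horizontal) and percent G and C (vertical) of the 300-base window at the main TSS of each of the 94 chain genes, coloured by complex; filled circles have a CTCF summit within 1 kb of any TSS and crosses have none, and dashed lines mark 0.6 and 50%. Crosses and circles mix in the upper right quadrant, and most of the complex IV crosses lie left of 0.6.

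The complex IV crosses on the left are largely isoforms of restricted expression. Several complex IV subunits have a widely expressed form and a form known mainly from muscle, heart, lung or testis. The widely expressed Cox4i1, Cox6a1, Cox6b1, Cox7a2 and Cox8a, with Cox7a2l, had a promoter summit in 6 of 6 cases, with signals between 15.6 and 88.1. Of Cox4i2, Cox6a2, Cox6b2, Cox7a1, Cox8b and Cox8c, 1 of 6 had one, Cox6b2 with 29.5 at 321 bases upstream. The Cox6b1 summit lies in an intron and counts only through a start inside the gene that is not its main TSS. It is more than 1 kb from the main TSS, where base composition was read, so 6 of 6 does not hold at main TSSs. The promoter windows were CpG-rich in 6 of 6 and 0 of 6, with CpG ratios of 0.713 to 1.20 in the widely expressed set and 0.115 to 0.538 in the restricted set. Within 10 kb the sets had 6 of 6 and 5 of 6, and some restricted genes had strong peaks there, such as Cox8b with 486 at 8272 bases upstream, Cox6a2 with 479 at 2007 bases upstream and Cox7a1 with 409.6 at 2634 bases upstream. Expression was not analysed here, and composition and isoform class cannot be told apart in 12 genes.

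The 3 genes for the c subunit of ATP synthase encode the same mature protein and differ in their promoters. Atp5g2 had the peak of 585 given above, at a start that is not its main TSS. Atp5g1 had 28.8 at 121 bases upstream, with 16.7 in replicate 1 and 12.1 in replicate 2. Atp5g3 had no summit within 1 kb in the optimal list, though it had one in the conservative list. Its strongest optimal peak within 10 kb was 26.1 at 3989 bases upstream. Atp5g2 stood among the strongest chain genes, and the others stood low in the list.

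Words of the known regulators of the chain were counted in the same windows, on both strands. The NRF1 word occurred in 19 of the 94 (20.2%), against 6.48% of all windows, the ETS and GABP word in 18 (19.1% against 11.6%), and the YY1 word in 10 (10.6% against 3.31%). Of the 10 genes with a YY1 word 7 are complex I genes, and 3 of the 10 had a summit within 1 kb, against 63.9% of the 687 genes with that word. The SP word GGGCGG was as frequent in chain genes as in all, 45.7% in each. The CTCF core word was present in 8 windows (8.51%), against 2.57% of all, and 6 of the 8 genes had a summit within 1 kb, where the share over the 534 genes with the word was 75.5%. Partial matches and other spellings of these motifs are not counted by such words.

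Sites of the CTCF matrix were counted under promoter peaks and under more distant ones. Of the 78 distinct peaks within 1 kb of chain genes, 35 had a site within 100 bases of the summit (44.9%, interval 34.3 to 55.9%), against 49.6% of all 13140 promoter peaks. In sequence 1000 bases to either side a site was found in 3.85% of windows for the chain genes and 5.03% for all promoter peaks. Of the 168 peaks at 1 to 10 kb from chain genes 125 had a site (74.4%), and over the optimal list it was 72.2%. The core word was present in 15 of the 78 (19.2%) and in 15.0% of all promoter peaks.

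Several of the strongest promoter peaks had no matrix site. Among the 14 in the top 10% these were Atp5g2, Atp5mpl, Ndufaf3, Ndufaf6 and Ndufab1. Atp5g2 missed the threshold of 9.29 narrowly with a score of 9.26, while Ndufaf3 had a best score of -0.17. Peaks above the median signal within 1 kb of chain genes had a site in 19 of 33 cases (57.6%, interval 40.8 to 72.8%), against 70.4% of all such promoter peaks. Of the 27 genes with a site at the strongest promoter peak, 19 had it on the gene's own strand (70.4%, against 54.6% of all such genes).

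The core CCAGAAGAGGGC shown above was the most frequent one near chain genes. It made up 31 of the 160 matrix sites within 10 kb (19.4%), against 7852 of 51802 over the optimal list (15.2%), and the next core, CCAGCAGAGGGC, had 5. All 31 lay in repeat-masked sequence, as did 99.7% of those in the whole list. B2 short interspersed elements are known to have spread CTCF sites with such a core through rodent genomes, but repeat families were not assigned here. The peaks were mostly weak, with a median signal of 35.8 against 240.0 at the other sites near chain genes; over the whole list the medians were 50.8 and 137. The 4 printed examples span this range: 197.9 at Ndufa3, 286 bases upstream, 30.1 at Cox6b1, 620 bases upstream, 33.4 at Atp5l, 972 bases upstream, and 458 at Sdhb, 3379 bases downstream.

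The strongest peak near any chain gene was not at a promoter. It belonged to Ndufa4l2, a relative of Ndufa4 known for its induction in low oxygen, with 663 at 1967 bases upstream, and ranked 76 in replicate 1 and 32 in replicate 2. Its site is shown for comparison with the promoter sites.
Ndufa4l2, chr10:127513015-127513033, plus strand: cggCCTCTAGAGGGCgccg
Ndufa4l2 had 4 summits within 10 kb and none within 1 kb.

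No optimal summit lay within 10 kb of 10 chain genes. In complex I these were Ndufa9, Ndufc2, Ndufs4, Ndufs5 and Ndufs6. Ndufs4, an accessory subunit whose loss in mice is used as a model of Leigh syndrome, had its nearest summit 53.3 kb away, and Ndufa9, near the quinone site, 42.1 kb. For Ndufs5 the distance was 27.4 kb, for Ndufs6 17.1 kb and for Ndufc2 11.7 kb. The assembly factors Ndufaf5 and Ndufaf7 had it at 11.3 and 13.6 kb, and Sdhaf4 of complex II at 28.6 kb. In complex IV, Cox7c, a widely expressed subunit, was the farthest at 182 kb, and Cox8c had a summit of 309 in signal at 13.4 kb. The list of both replicates' reads together, before filtering, held peaks within 10 kb of all 10, with highest signals of 7.25 to 22.1 per gene. That list has 300000 peaks, and it held one near 2845 of all 5326 genes without an optimal summit within 10 kb (53.4%). The median of the highest signal was 13.2 for the 10 chain genes and 9.47 for the 2845.

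The limits of 1 and 10 kb cut through a continuous range. Just inside 1 kb were Uqcr11 at 0.767 kb with 195 and Atp5l at 0.972 kb with 33.4, and just outside were Atp5h at 1.031 kb with 44.7 and Sdhb at 1.058 kb with 7.80. Just inside 10 kb were Sdhc at 8.96 kb with 196 and Cox4i2 at 9.218 kb with 19.7, and just outside were Ndufaf5 at 11.256 kb with 168 and Ndufc2 at 11.668 kb with 111.

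The 2 replicates were compared within the strongest 73465 peaks of either list. A summit within 1 kb was then present in both for 51 chain genes (54.3%, against 43.0% of all genes), in replicate 1 alone for 7, in replicate 2 alone for 7 and in neither for 29. Of the 59 strongest promoter peaks 56 had a counterpart within 100 bases in both lists, and 49 were among the strongest 73465 in both. Across those 56 peaks the Spearman correlation of ranks was 0.952, a description over peaks of the same 2 libraries and not a test. The optimal list was itself filtered by reproducibility between these replicates, so agreement of ranks was partly set by that choice. The exceptions were weak peaks: Ndufb5, Cox7a2 and Atp5o were each missing from 1 list, and Cox8a ranked 236749 in replicate 1 and 76116 in replicate 2.

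**Figure D5:**
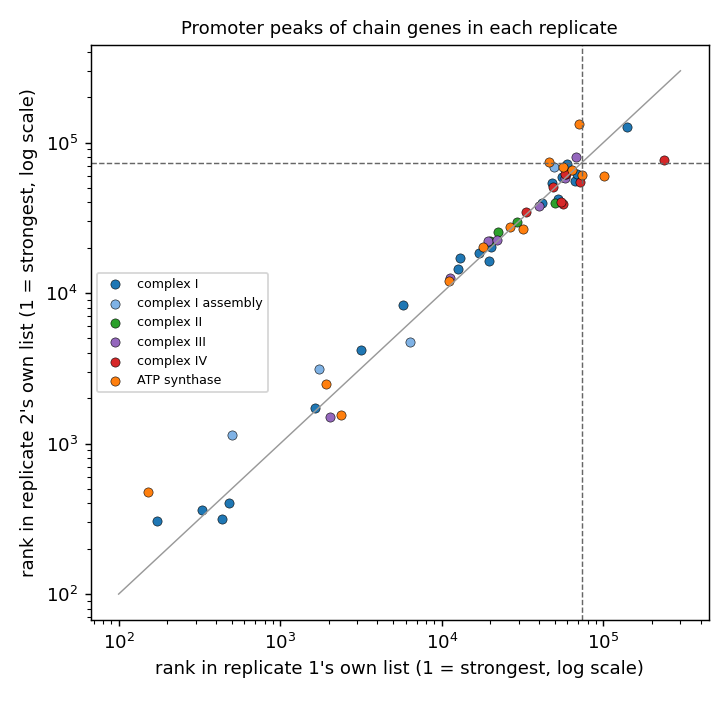
Rank of the strongest promoter peak of each chain gene in the list of replicate 1 (horizontal) and replicate 2 (vertical), both log scales with 1 the strongest, for the 56 found in both; dashed lines mark rank 73465 and the grey line equal ranks. Peaks of complex I, its assembly factors, complex III and ATP synthase extend to the strong end at lower left, and departures from the line are largest at the weak end.

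Other genes that build or regulate the chain were counted by a list. Of 61 listed 60 were found in the annotation; 52 had a summit within 10 kb (86.7%) and 44 within 1 kb (73.3%), against 74.4% and 46.7% of all genes. Complex IV assembly genes had a promoter summit in 16 of 21 cases, the regulators and genes of mitochondrial DNA upkeep in 13 of 17, and further complex I assembly genes in 5 of 9. Nrf1 had its strongest peak within 10 kb, 144 in signal, 1 base from a TSS. The strongest peak of Yy1 was 261 at 5.134 kb, that of the nuclear receptor Esrra 303 at 2.81 kb, and that of the coactivator Ppargc1a 35.2 at 1.85 kb. That of Tfam, which packages mitochondrial DNA and acts in its transcription, was 357 at 9.234 kb. All 17 genes of the regulator list had a summit within 10 kb, at widely different distances from their starts.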

How the data were processed

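Per the deposited file descriptions, peaks on mm10 were called by the authors for each replicate and for both together, each with a further file of unstated role, and then filtered by IDR into an optimal and a conservative list. Sequencing depth, aligner, caller, versions and IDR threshold: not given in the sources used here. Each peak carries a signal deposited by the authors, a measure of enrichment without a stated scale, with which peaks were ranked and described; summits come from the offset they deposited. The authors' lists carry no read counts.

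Distances were taken to every TSS in GENCODE M21. The 19-base matrix was trained on the 5000 strongest peaks farther than 10 kb from any chain gene, so the shares over all peaks, unlike those of chain genes, include training peaks; its threshold is the score that 5% of flanking windows reach. Counting steps were checked on simulated data. Python 3.11.15, numpy 2.4.6, scipy 1.17.1, pysam 0.24.0 and matplotlib 3.10.9 were used. No test of significance was made, since 1 group was measured.

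Members and gene lists were chosen with earlier results of these data known. Genes were named by rule: the 3 strongest promoter peaks per complex, genes with no summit within 10 kb, the isoform sets, summits within 50 bases of a TSS, genes at the window limits, the most summits, and 6 regulators. Core subunits, the top 10% and further examples were chosen after their values were seen. The RefSeq promoter table held 77 of the 94 genes, so windows were read from the mm10 sequence. One member is counted in the totals and not reported here by name.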

Additional observations from a re-analysis of the deposited data

How the results depend on the processing

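Of 47 alternative values, each for 1 result under 1 other setting, 42 stayed within the interval of the reported share. The conservative list gave 89.4% of chain genes within 10 kb and 58.5% within 1 kb, against 73.4% and 45.0% of all genes. Its genes bound within 1 kb were not all among those of the optimal list, as Ndufaf8 and Atp5g3 show. Restricting to peaks above the median signal gave 69.1% of chain genes within 10 kb and 31.9% within 1 kb, against 57.5% and 25.5% of all genes. A window of 5 kb gave 78.7% against 65.2%, and one of 50 kb gave 97.9% against 89.2%. A matrix threshold that 1% of flanks reach left a site at 12 of the 78 promoter peaks of chain genes (15.4%). No share over all promoter peaks is given at that threshold, so whether the drop is particular to chain genes is not known. Leaving out 1 replicate, by taking the other's list, gave 88.3 to 89.4% within 10 kb, against 74.4 to 74.5% of all genes. Within 1 kb it gave 61.7% either way, against 47.4% of all genes. The other shares, given for chain genes only, were 50 to 51.7% above the median signal and 65.5 to 67.2% upstream. For their promoter peaks they were 15.4 to 18.2% with the core word and 42.9 to 43.6% with a matrix site. Taking as many peaks as the conservative list holds gave 53.2% of chain genes bound in both replicates, against 41.8% of all genes. That alternative was chosen after seeing the data, as were the comparisons by CpG content, partner, receptor genes, promoter words and the unfiltered list. No paired analysis was possible because there is 1 group. The lists hold no depth, whole intestine mixes cell types, and a gene without a listed summit is not shown to lack CTCF.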
